A study of Mus musculus with 9 samples.

Results

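The genes of the early steps of steroid hormone synthesis were followed through the first weeks of testis growth in the mouse. The group was named as 7 genes: Lhcgr, Scarb1, Star, Nr5a1, Cyp11a1, Hsd3b1 and Cyp17a1. A gene was measured where a row of the array table carried its symbol and no other symbol. By that rule 6 of the 7 genes had a row, 1 row each, of 19935 genes with a row in all. Lhcgr (gene ID 16867, chromosome 17), the receptor for luteinizing hormone, had no row of its own and is not analysed here. Whole testis of untreated male Swiss albino mice was collected at 8, 16 and 24 days of age, with 3 arrays per age and 9 in all. All 3 groups share the strain, the sex, the tissue and the housing, and they differ by age alone as far as the labels say. The design text calls the 3 arrays of an age biological replicates and does not say how many animals gave the RNA of each. The p-values therefore set a change against the spread between these arrays, taken for each gene as 1 spread over the 3 ages. Replicates 1 and 2 of an age are numbered so in the sample titles, and the unnumbered array is called replicate 3 here.

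Luteinizing hormone from the pituitary acts through its receptor on the Leydig cells, which lie between the seminiferous tubules, and raises cyclic AMP there. Cholesterol then enters the cell, in part through the lipoprotein receptor SR-BI (gene Scarb1), and the protein STAR moves it to the inner mitochondrial membrane. CYP11A1 cuts the side chain of cholesterol to give pregnenolone, 3-beta-hydroxysteroid dehydrogenase (Hsd3b1) turns pregnenolone into progesterone, and CYP17A1 leads from there into androgens. NR5A1, also known as SF-1, is a nuclear receptor that binds the promoters of many steroidogenic genes and is made in Leydig and in Sertoli cells. Rodent Leydig cells come in a fetal population, which persists after birth, and an adult population, which arises later.

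The values are log2 values relative to each gene's median over the 9 arrays. A value of 0 is the gene's median array and a value of 1 is double that array. They show how a gene differed between arrays and give no expression level, so the genes cannot be ranked by abundance. The measured array rows belong to Nr5a1 (gene ID 26423, chromosome 2), Scarb1 (20778, chromosome 5), Star (20845, chromosome 8), Cyp11a1 (13070, chromosome 9), Hsd3b1 (15492, chromosome 3) and Cyp17a1 (13074, chromosome 19). Each gene had 1 blank cell among its 9, the median array, which was taken as 0.

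Promoter sequence is shown for Cyp11a1 and Hsd3b1, the only 2 measured genes that had a promoter window. They were also the 2 genes whose changes differed between the intervals by the test given further on. Both windows run from 250 bases before to 20 bases after a RefSeq start, on GRCm38.p6, and lie at chr9:58014702-58014971 on the plus strand and chr3:98859775-98860044 on the minus strand. The capitals mark CCTTGA, the reverse complement of TCAAGG, letters like those that NR5A1 binds.
Cyp11a1: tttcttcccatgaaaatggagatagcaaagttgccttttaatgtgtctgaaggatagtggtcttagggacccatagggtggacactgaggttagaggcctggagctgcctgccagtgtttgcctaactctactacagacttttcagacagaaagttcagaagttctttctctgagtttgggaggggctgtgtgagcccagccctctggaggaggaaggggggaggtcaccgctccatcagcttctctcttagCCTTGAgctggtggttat
Hsd3b1: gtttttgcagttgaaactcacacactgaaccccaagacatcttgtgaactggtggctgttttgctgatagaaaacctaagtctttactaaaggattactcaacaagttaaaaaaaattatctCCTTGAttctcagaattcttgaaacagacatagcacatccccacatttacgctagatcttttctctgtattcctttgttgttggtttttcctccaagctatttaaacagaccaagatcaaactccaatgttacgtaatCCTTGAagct
The letters TCAAGG, searched on both strands, stood at +3 of the Cyp11a1 window and at -128 and +11 of the Hsd3b1 window, counted from the start site, each time as the reverse complement. They were present in 3 of the 4 windows that the RefSeq table held for Lhcgr, Cyp11a1 and Hsd3b1, and in 13.3% of 32851 mouse promoter windows of the same length. The third such window was that of Lhcgr, at -119 in the forward direction, and the other Cyp11a1 start, at chr9:57997774-57998043, held none. The Cyp11a1 window shown is thus the one with a match. The letters AGGTCA were present in 2 of the 4 windows and 15.0% of all, at -28 for Cyp11a1 and at -122 for Lhcgr, where they overlap the match at -119. A GATA site, written AGATAA, was present in 1 of the 4 and 10.5% of all, at -134 for Hsd3b1 as the reverse complement. These are letter matches in short windows and were not set against any binding data. The letters were chosen after the windows were read, so the shares are no test of enrichment. Star, Scarb1, Nr5a1 and Cyp17a1 had no window, and Lhcgr has no array values here.

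All 6 measured genes fell between 8 and 16 days, and every array of 16 days lay below every array of 8 days for each of them. The falls ran from 1.32-fold for Scarb1 to 8.60-fold for Cyp17a1. A gene is called here where limma's adjusted p was at or under 0.05 after Benjamini-Hochberg adjustment over all 19935 genes. Of all genes 24.7% were called in this comparison, 14.3% as falls and 10.4% as rises. The arrays of 16 days lay wholly below those of 8 days for 21.5% of all genes. The median change of the 6 genes was -1.47 on the log2 scale, against -0.02 over all genes tested.

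Between 16 and 24 days the 6 genes parted. Nr5a1 fell again by 0.59, Cyp11a1 rose by 1.06, and the other 4 did not pass the test. In this comparison 33.3% of all genes were called, 20.1% as falls and 13.2% as rises, so that 2 of 6 is close to the share over all genes. The arrays of 24 days lay wholly below those of 16 days for Nr5a1 alone among the 6, and for 39.1% of all genes. The median change was 0.14 for the 6 genes and -0.16 for all genes.

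At 24 days all 6 genes were still below 8 days, by between 1.51-fold for Scarb1 and 4.55-fold for Cyp17a1. All 6 were called as falls, where 54.4% of all genes were called and 35.2% fell. For 5 of the 6 the arrays of 24 days lay wholly below those of 8 days, as they did for 45.0% of all genes, and the exception was Hsd3b1. The median change was -1.26 for the 6 genes and -0.18 for all genes. The 3 comparisons share arrays and are not independent of each other. Over the 3 ages together, a moderated F test called 6 of 6 genes and 50.7% of all genes.

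**Figure D1:**
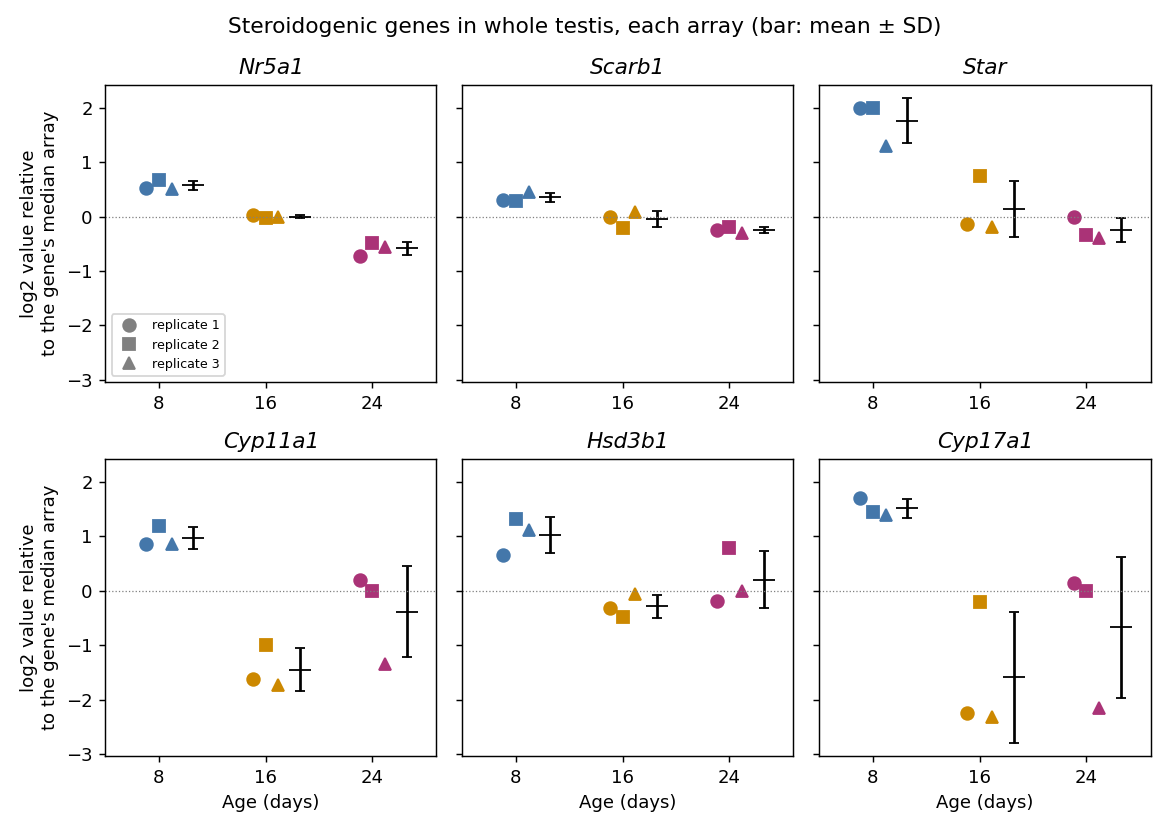
Each panel plots 1 gene by age in days (x axis) as log2 value relative to the gene's median array (y axis), with a marker for each array and a bar for mean ± SD at n = 3. The 8-day arrays lie highest for all 6 genes apart from 1 overlap in Hsd3b1, and the arrays of 16 and 24 days spread most for Cyp17a1.

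Nr5a1, the regulator, fell by nearly equal steps. It had values of 0.54, 0.67 and 0.52 in replicates 1, 2 and 3 at 8 days, of 0.03, -0.02 and 0 at 16 days, and of -0.71, -0.48 and -0.56 at 24 days. The 3 ages did not overlap, and the arrays of an age lay close together. Its means were 0.57 ± 0.083 at 8 days, 0.0025 ± 0.026 at 16 days and -0.58 ± 0.12 at 24 days (SD, n = 3). It fell by 0.57 ± 0.09 between 8 and 16 days (standard error here and below, limma adjusted p = 0.00129) and by 0.59 ± 0.09 between 16 and 24 days (limma adjusted p = 0.00123). With the replicate number as a block, on the 6 numbered arrays, neither fall was called (limma adjusted p of 0.0641 and 0.0825). The second change minus the first was -0.01, with a 95% interval from -0.36 to 0.33. At 24 days Nr5a1 was 2.23-fold below 8 days, with a limma adjusted p of 3.22e-06.

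Scarb1, which takes up cholesterol from high-density lipoprotein, moved least. Its values were 0.32, 0.29 and 0.46 at 8 days, 0, -0.21 and 0.09 at 16 days, and -0.24, -0.18 and -0.30 at 24 days. The 8-day arrays stood above all others, while replicate 2 of 16 days lay among those of 24 days. Scarb1 fell by 0.40 ± 0.10 between 8 and 16 days (limma adjusted p = 0.0147). The change between 16 and 24 days was -0.20 ± 0.10 (limma adjusted p = 0.131). At 24 days it stood 0.60 ± 0.10 below 8 days (limma adjusted p = 0.000484). Without replicate 3 of 8 days the first fall was 0.35 and was not called (limma adjusted p = 0.0598). Without replicate 2 of 16 days the change between 16 and 24 days was -0.29 and was called (limma adjusted p = 0.0387).

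Star, whose protein carries out the step that limits the rate of acute steroid production, had 1 large drop. Its values were 2.01, 2.0 and 1.30 at 8 days, -0.13, 0.75 and -0.19 at 16 days, and 0, -0.34 and -0.39 at 24 days. Replicate 2 of 16 days stood between the arrays of 8 days and all the others. Means were 1.77 ± 0.41, 0.14 ± 0.52 and -0.24 ± 0.21 at 8, 16 and 24 days (SD, n = 3). Star fell 3.08-fold between 8 and 16 days, by 1.62 ± 0.27 on the log2 scale (limma adjusted p = 0.00176). The change from 16 to 24 days was -0.39, with a 95% interval from -0.98 to 0.21 (limma adjusted p = 0.264), and -0.09 without replicate 2 of 16 days. The fall at 24 days against 8 days was 2.01 ± 0.27, or 4.03-fold (limma adjusted p = 0.000119). The second change minus the first was 1.24 ± 0.46 (limma adjusted p = 0.206), and 1.84 without replicate 2 of 16 days, where it was called (limma adjusted p = 0.0261).

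Cyp11a1, the side-chain cleavage enzyme that makes pregnenolone, was lowest at 16 days. Its values were 0.85, 1.20 and 0.86 at 8 days, -1.63, -0.99 and -1.73 at 16 days, and 0.19, 0 and -1.35 at 24 days. In replicates 1 and 2 of 24 days it stood above all 16-day arrays, while replicate 3 of 24 days lay among them. Means were 0.97 ± 0.20, -1.45 ± 0.40 and -0.39 ± 0.84 at 8, 16 and 24 days (SD, n = 3). Cyp11a1 fell 5.35-fold between 8 and 16 days (by 2.42 ± 0.36, limma adjusted p = 0.000976). It rose 2.09-fold between 16 and 24 days (by 1.06 ± 0.36, limma adjusted p = 0.0446) and at 24 days was 2.56-fold below 8 days (limma adjusted p = 0.00867). The rise was called by a narrow margin: the call was lost in 10 of 16 alternative settings. These changed the scaling, the weights, the blanks or the blocks or left arrays out. The block on the numbered arrays alone and the test against a minimum change are not among the 16. Leaving out any 1 of 7 of the 9 arrays ended the call, with changes from 0.78 to 1.06 (limma adjusted p up to 0.160). Array weights ended it too (1.00, limma adjusted p = 0.0957). Without replicate 2 of 16 days or replicate 3 of 24 days it was kept, at 1.29 and 1.55. Without replicate 3 of 24 days the fall at 24 against 8 days was 0.87, still called.

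Hsd3b1, the 3-beta-hydroxysteroid dehydrogenase next in the path, had the same low point at 16 days with smaller changes. Its values were 0.66, 1.32 and 1.11 at 8 days, -0.32, -0.48 and -0.06 at 16 days, and -0.20, 0.79 and 0 at 24 days. Replicate 2 of 24 days lay above replicate 1 of 8 days, and replicate 1 of 24 days lay among the arrays of 16 days. Hsd3b1 fell 2.49-fold between 8 and 16 days (by 1.32 ± 0.25, limma adjusted p = 0.00416). From 16 to 24 days the change was 0.48, with a 95% interval from -0.08 to 1.05 (limma adjusted p = 0.156), and 0.19 without replicate 2 of 24 days. It was 1.78-fold lower at 24 than at 8 days (by 0.83 ± 0.25, limma adjusted p = 0.0177), and this call was lost without replicate 2 or 3 of 8 days or replicate 1 or 3 of 24 days, with an adjusted p of up to 0.0725.

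Cyp17a1, the 17-alpha-hydroxylase and lyase that opens the way to androgens, changed most of the 6 against 8 days, and spread most at 16 and at 24 days. Its values were 1.72, 1.44 and 1.39 at 8 days, -2.25, -0.20 and -2.32 at 16 days, and 0.15, 0 and -2.17 at 24 days. The arrays of 8 days lay together above all others, while the 16-day and 24-day arrays each split into a high and a low part. Means were 1.51 ± 0.18, -1.59 ± 1.20 and -0.67 ± 1.30 at 8, 16 and 24 days (SD, n = 3). Cyp17a1 fell by 3.10 ± 0.66 between 8 and 16 days (limma adjusted p = 0.00698), a change with a 95% interval from -4.58 to -1.63. This was the lowest mean change of all 19935 genes, and that of Cyp11a1 was the second lowest. Star ranked 16 and Hsd3b1 52 in the same order. From 16 to 24 days the change of Cyp17a1 was 0.92, with a 95% interval from -0.55 to 2.39 (limma adjusted p = 0.282), and between 0.51, without replicate 1 of 24 days, and 1.67, without replicate 3 of 24 days, when arrays were left out. At 24 days Cyp17a1 was 2.19 ± 0.66 below 8 days (limma adjusted p = 0.0172), a call that was lost without replicate 1 of 8 days (limma adjusted p = 0.0550) and without replicate 3 of 24 days, where the fall was 1.44 (limma adjusted p = 0.0530).

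**Figure D2:**
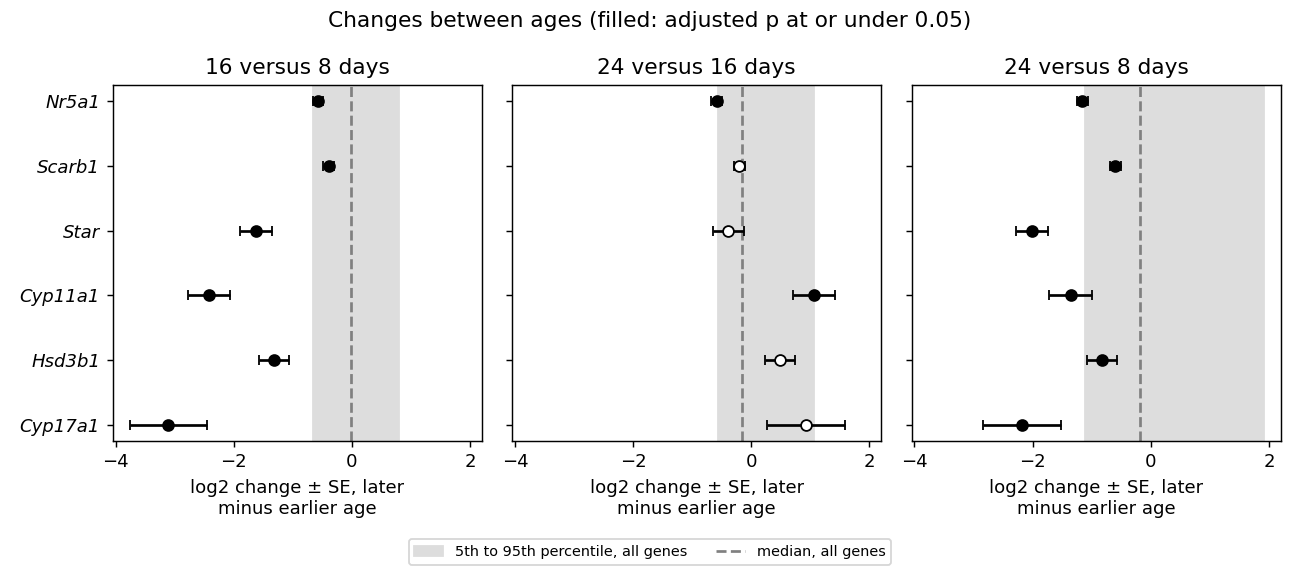
Changes of the 6 genes on the log2 scale, later minus earlier age, with limma's standard error (x axis), by gene from the regulator down to the androgen branch (y axis), where filled points passed the test and the grey band spans the 5th to the 95th percentile of all genes. Between 8 and 16 days Star, Cyp11a1, Hsd3b1 and Cyp17a1 lie below the band's lower edge of -0.66, and between 16 and 24 days Cyp11a1 lies at the band's upper edge of 1.06 and Nr5a1, at -0.59, just below its lower edge of -0.56.

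Whether the 2 intervals differed was tested as the change from 16 to 24 days minus the change from 8 to 16 days. This difference was called for 2 of the 6 genes, Cyp11a1 and Hsd3b1, where 5.38% of all genes were called and 3.06% were called and positive. It was 3.48 ± 0.62 for Cyp11a1 (limma adjusted p = 0.00862) and 1.80 ± 0.44 for Hsd3b1 (limma adjusted p = 0.0428). For Cyp17a1 it was 4.02 ± 1.14 and did not pass (limma adjusted p = 0.0839). That was the largest difference of the 6, with the largest standard error. It passed for Cyp17a1 without replicate 2 of 16 days (5.41, limma adjusted p = 0.0172) and without replicate 3 of 24 days (4.77, limma adjusted p = 0.0140). The Cyp11a1 difference was lost without replicate 1 of 16 days (3.31, limma adjusted p = 0.0505) and kept without each of the other 8 arrays. That of Hsd3b1 was lost without 6 of the 9 arrays in turn, with an adjusted p of up to 0.157. For Scarb1 the difference was 0.19, with a 95% interval from -0.19 to 0.57.

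The spread within an age was itself uneven across the 6 genes. The SD of Cyp17a1 was the 13th largest of 19935 genes at 16 days and the 5th largest at 24 days. The SD of Cyp11a1 ranked 25 at 24 days and 681 at 16 days, that of Star ranked 238 at 16 days, and that of Hsd3b1 ranked 218 at 24 days. The median SD over all genes was 0.152, 0.133 and 0.0975 at 8, 16 and 24 days. The SD of Nr5a1 at 16 days, 0.026, lay far below that median.

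Replicate 2 of 16 days and replicate 3 of 24 days stood apart for several of the genes. In replicate 2 of 16 days Cyp17a1 stood 2.09 above the mean of the other 2 arrays of that age, Star 0.90 above and Cyp11a1 0.69 above. In the same array Hsd3b1 stood 0.29 below, Scarb1 0.25 below and Nr5a1 0.04 below. In replicate 3 of 24 days Cyp17a1 stood 2.24 below the mean of the other 2 arrays and Cyp11a1 1.45 below. There Hsd3b1 stood 0.30 below, Star 0.22 below, Scarb1 0.09 below and Nr5a1 0.04 above. Within an age, then, Cyp17a1 and Cyp11a1 stood apart in the same 2 arrays, while Nr5a1 stayed within 0.04 of the others in both. Hsd3b1 was highest at 24 days in replicate 2, by 0.89 over the other 2 arrays.

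**Figure D3:**
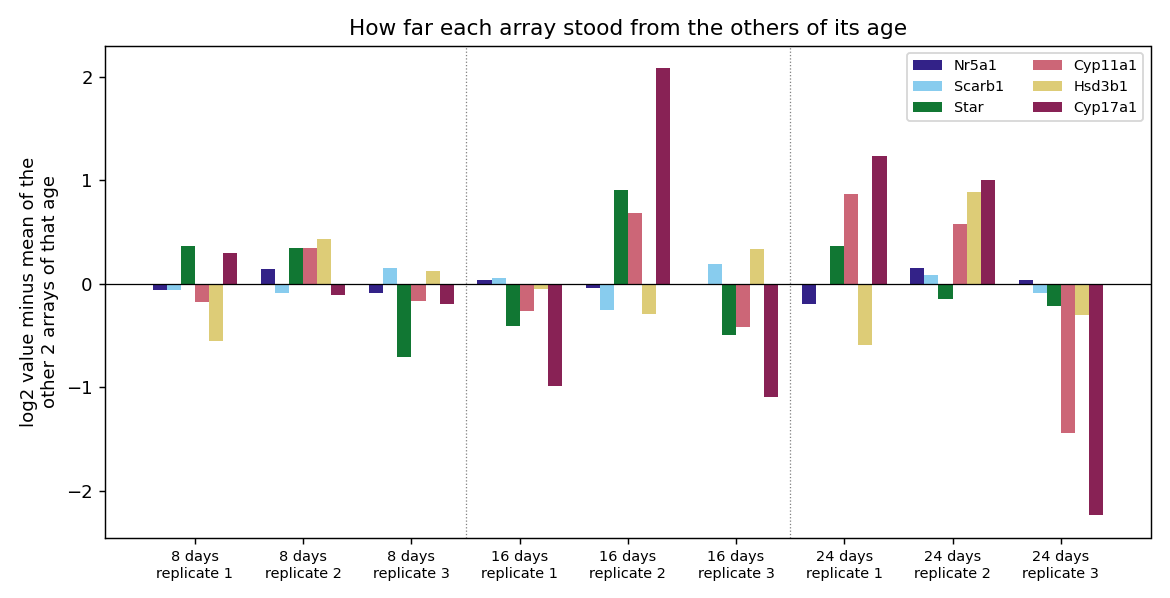
For each of the 9 arrays (x axis) a bar for each gene gives its log2 value minus the mean of the other 2 arrays of that age (y axis). The tallest bars are those of Cyp17a1 in replicate 2 of 16 days, at 2.09, and in replicate 3 of 24 days, at -2.24.

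Several values moved with replicate 2 of 16 days. The median of 1027 olfactory receptor genes was 0.17 in that array and 0.17 in replicate 1 of 8 days, and between -0.05 and 0.03 in the other 7. Of the marker lists, the pachytene spermatocyte genes had a median of 0.34 in that array, the epididymis genes 0.33, the erythroid genes 0.32, the adrenal cortex genes 0.24, the adipocyte genes 0.14 and the spermatid genes 0, all above replicates 1 and 3 of 16 days. The Sertoli cell genes had a median of -0.30 there, the peritubular genes -0.16, the Leydig cell markers without a steroid enzyme -0.11 and the endothelial genes -0.02, all below both. The later steroid enzymes had a median of 0 there, against 0.01 and 0 in replicates 1 and 3, and did not move together. Among them Hsd3b6 stood at 0.78, against -0.24 and -0.12, and Hsd17b3 at -0.73, against 0 and 0.28. The part that any of these had in the Star, Cyp11a1 and Cyp17a1 values was not tested. Without replicate 2 of 16 days, Cyp17a1 fell by 3.80 between 8 and 16 days, and the falls of all 6 genes were still called.

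The later steroid enzymes and the partners of the early ones were measured through 15 of 20 listed genes, and 4 fell and 0 rose between 8 and 16 days, with a median change of -0.21. These 4 are 26.7% of the 15, near the 24.7% of all genes called in that comparison. Hsd17b3, which makes testosterone from androstenedione, had values of 1.5, 2.62 and 1.95 at 8 days, 0, -0.73 and 0.28 at 16 days, and -1.20, -0.99 and -1.46 at 24 days. The 3 ages did not overlap. It fell by 2.18 ± 0.30 between 8 and 16 days (limma adjusted p = 0.000693) and by 1.07 ± 0.30 between 16 and 24 days (limma adjusted p = 0.0234), the second a call lost in 6 of the 16 alternative settings, with an adjusted p of up to 0.0797. At 24 days it was 9.46-fold below 8 days (limma adjusted p = 1.28e-05). Hsd17b1, which reduces estrone, and Akr1c14, a 3-alpha-hydroxysteroid dehydrogenase, fell between 8 and 16 days by 1.14 and 1.19, and at 24 days stood 1.60 and 1.40 below 8 days. Srd5a3, of the 5-alpha-reductase family, fell by 0.67 between 8 and 16 days, and the calls of Akr1c14 and Srd5a3 in that interval were each lost in 3 of 16 alternative settings. Between 16 and 24 days 1 of the 15 rose and 2 fell (median change -0.10), and at 24 against 8 days 1 rose and 8 fell (median change -0.35). The shares called were 20% and 60%, against 33.3% and 54.4% of all genes.

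The gene of that list that rose was Hsd3b6, which encodes another 3-beta-hydroxysteroid dehydrogenase of mouse Leydig cells. Its values were 0, -0.77 and -0.09 at 8 days, -0.24, 0.78 and -0.12 at 16 days, and 1.33, 3.36 and 1.16 at 24 days. All arrays of 24 days lay above all others, and replicate 2 of 24 days was the highest, as it was for Hsd3b1 among the arrays of that age. Hsd3b6 rose by 1.81 ± 0.52 between 16 and 24 days (limma adjusted p = 0.0249), a call lost without replicate 1 of 16 days (limma adjusted p = 0.0883) or replicate 3 of 16 days (0.0672). Without replicate 2 of 24 days the rise was 1.11 and was still called (limma adjusted p = 0.0337). At 24 days it was 2.24 ± 0.52, or 4.71-fold, above 8 days (limma adjusted p = 0.00449), where Hsd3b1 was 1.78-fold below. Hsd3b1 and Hsd3b6 are closely similar genes, and whether probes of one also bind transcripts of the other was not tested.

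Cholesterol uptake, storage and delivery were measured through 21 of 23 listed genes. Between 8 and 16 days 6 fell and 0 rose, with a median change of -0.32, and the 28.6% called were near the 24.7% of all genes. Npc1, which releases cholesterol from lysosomes, fell by 0.76 ± 0.16, Stard5, a cholesterol-binding relative of Star, by 0.53 ± 0.11, and the lipoprotein receptor gene Lrp1 by 0.51 ± 0.12 (limma adjusted p of 0.00643, 0.00720 and 0.0129). Dbi, whose product binds acyl-CoA, fell by 0.41 ± 0.10. Between 16 and 24 days 13 fell and 3 rose (median change -0.40), and with every array shifted to a median of 0 over all genes (centred arrays) 6 fell and 3 rose. Plin2, which coats lipid droplets, rose by 1.12 ± 0.20 in that interval (limma adjusted p = 0.00268), and the cholesterol exporter genes Abcg1 and Abca1 fell by 0.73 and 0.64. At 24 against 8 days 15 fell and 2 rose, with a median change of -0.64. Falls made up 61.9% of the list between 16 and 24 days and 71.4% at 24 against 8 days, against 20.1% and 35.2% of all genes.

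Luteinizing hormone signalling and its brakes were measured through 32 of 41 listed genes, without the receptor. The list runs beyond the steps to cyclic AMP and takes in kinase, growth factor and hormone receptor genes such as Map2k1, Egfr, Ghr, Igf1r and Esr1. Gnas and Prkaca, also listed, had no row of their own. The shares below are those of the whole list. Between 8 and 16 days 15 fell and 2 rose (median change -0.31), so that 46.9% of the list fell, against 14.3% of all genes. The 2 that rose were Acot7, an acyl-CoA thioesterase, by 1.40 ± 0.11, and Pde8a, a phosphodiesterase that breaks down cyclic AMP, by 1.29 ± 0.13 (limma adjusted p of 1.64e-05 and 9.65e-05). Pde8a rose further by 0.96 ± 0.13 between 16 and 24 days (limma adjusted p = 0.000745), and Pde7b, also a cyclic AMP phosphodiesterase, rose by 1.18 ± 0.27 in that interval (limma adjusted p = 0.0101). Which cells of the whole testis the rises of Acot7, Pde8a and Pde7b came from was not tested. The growth hormone receptor gene Ghr fell by 1.09 ± 0.17 between 8 and 16 days, and Igf1 by 0.88 ± 0.21. Igf1r, the receptor for IGF1, fell by 0.95 ± 0.20 and Arrb2, a beta-arrestin that desensitizes receptors, by 0.92 ± 0.16 between 16 and 24 days. In that interval 14 of the list fell and 5 rose, and at 24 against 8 days 20 fell and 4 rose, with 43.8% and 62.5% as falls, against 20.1% and 35.2% of all genes.

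Transcription regulators of steroidogenic genes were measured through 31 of 34 listed genes, of which 15 fell and 0 rose between 8 and 16 days (median change -0.41), or 48.4%, against 14.3% of all genes. Gata4, a GATA factor of gonadal somatic cells, fell by 0.96 ± 0.12 between 8 and 16 days (limma adjusted p = 0.000440). It fell by 0.64 ± 0.12 between 16 and 24 days (limma adjusted p = 0.00435). Both calls were kept in the 16 alternative settings counted here. Those settings leave out the block on the numbered arrays alone and the test against a minimum change. Between 16 and 24 days that block called 96 falls over all genes and that test 1, against 4004. Tcf21, which marks gonadal interstitial progenitors, fell by 1.18 ± 0.21 between 8 and 16 days, the homeobox gene Lhx9 by 0.83 ± 0.13, and Nr2f2, which encodes COUP-TFII of the interstitium, by 0.79 ± 0.11. Between 16 and 24 days 18 fell and 1 rose, and with centred arrays 11 fell and 1 rose. The 1 that rose was Klf4, by 0.83 ± 0.19 (limma adjusted p = 0.0096). Cbx2, a Polycomb gene needed for testis development, fell by 0.67 ± 0.15 and Mef2c by 0.69 ± 0.14. At 24 against 8 days 24 fell and 1 rose, with a median change of -0.77. The falls were 58.1% and 77.4% of the list in these 2 comparisons, against 20.1% and 35.2% of all genes.

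Leydig cell markers that are not steroid enzymes fell as well, 11 of 15 measured between 8 and 16 days (median change -0.72) and 12 of 15 at 24 against 8 days (median change -0.94), with 0 rises in both. That is 73.3% and 80.0% of the list, against 14.3% and 35.2% of all genes that fell. Thbs2, a thrombospondin, fell by 1.68 ± 0.15 between 8 and 16 days (limma adjusted p = 3.67e-05), Agtr2, an angiotensin receptor, by 1.42 ± 0.16, and Dlk1, of the Notch ligand family, by 1.09 ± 0.21. Pdgfra, a growth factor receptor of interstitial progenitors, fell by 0.94 ± 0.25, a call lost in 3 of 16 alternative settings. Between 16 and 24 days 6 of the 15 fell, among them Dlk1 by 1.48 ± 0.21, and 0 rose, with 40.0% falling, against 20.1% of all genes. In whole testis, a smaller share of the cells of a type and less RNA per cell cannot be told apart.

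Markers of several other cell types also changed over these ages, against a background of 14.3% of all genes falling between 8 and 16 days and 35.2% at 24 against 8 days. Of 11 endothelial markers 8 fell between 8 and 16 days (median change -0.45) and 11 at 24 against 8 days, 72.7% and all of them. Of the falls between 8 and 16 days, the call of Tek was lost in 15 of 16 alternative settings, Emcn in 5 and Flt1 in 2. The other endothelial calls of that interval were kept. Of 16 measured Sertoli cell markers, 7 fell in each interval and 12 fell and 1 rose at 24 against 8 days (median change -0.97), with Amh, the anti-Mullerian hormone, 1.71 lower at 16 than at 8 days. The falls were 43.8% of that list in each interval, against 14.3% and 20.1% of all genes. Of 9 peritubular and smooth muscle markers 6 fell between 8 and 16 days, or 66.7%, and 8 fell and 1 rose at 24 against 8 days. Between 8 and 16 days the calls of Acta2 and Mylk were each lost in 12 of 16 alternative settings and that of Myh11 in 5. Those of Smtn, Des and Tagln were kept. Of 11 macrophage markers 1 fell between 8 and 16 days and 4 fell at 24 against 8 days, 9.09% and 36.4%, which is no more than the share of all genes in the first and near it in the second. Germ cell markers went up: 12 of 13 pachytene spermatocyte markers rose between 8 and 16 days (median change 2.71), and 11 of 12 spermatid markers rose between 16 and 24 days (median change 3.70). That is 92.3% and 91.7% of the lists, against 10.4% and 13.2% of all genes that rose. Of 12 spermatid markers 0 were called between 8 and 16 days by limma, and 0 at an unadjusted p under 0.05. Adrenal cortex markers, which could come from adrenal-like cells of the testis, were called in 0 of 5 measured genes in each comparison by limma, with 1, 0 and 1 at an unadjusted p under 0.05 for 16 versus 8, 24 versus 16 and 24 versus 8 days. Of 9 measured epididymis markers 0 were called by limma in any comparison, with 0, 2 and 0 at an unadjusted p under 0.05. Of 5 measured erythroid markers Hemgn alone rose, at 24 against 16 and 8 days, and of 6 measured adipocyte markers Plin1 fell between 8 and 16 days. The part that these other cell types had in the falls of the 6 genes was not tested.

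**Figure D4:**
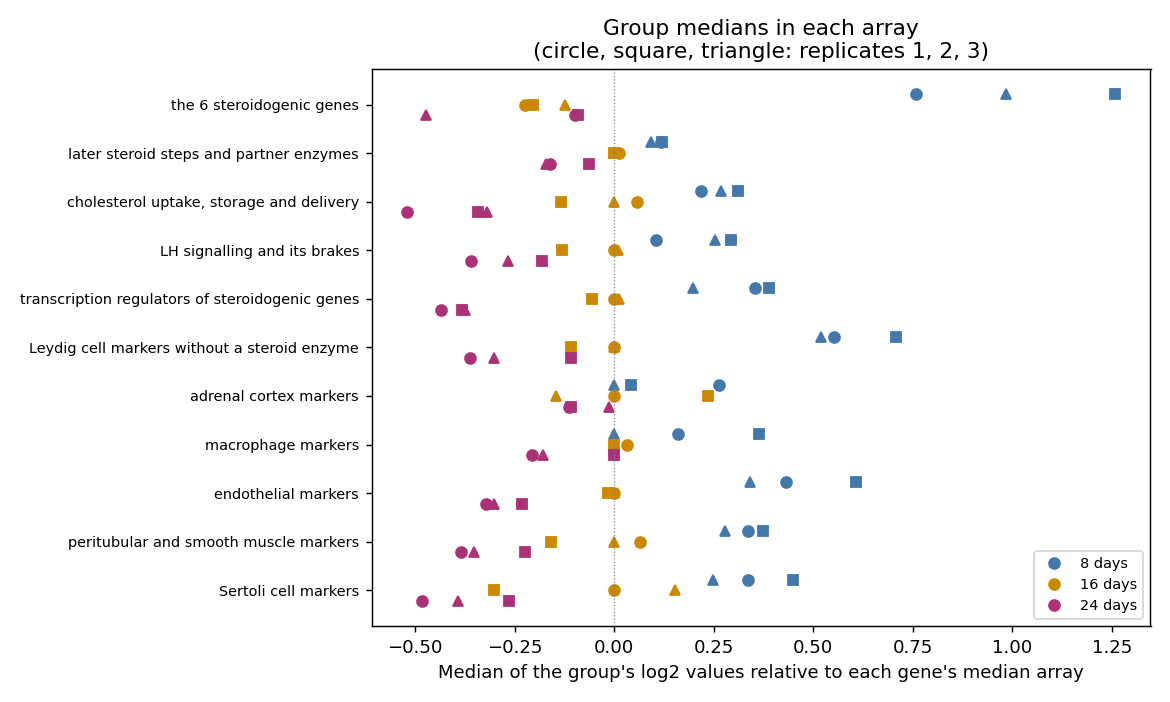
Median log2 value relative to each gene's median array (x axis) of the genes of each group (y axis) in each array, coloured by age, with circle, square and triangle for replicates 1, 2 and 3. The median of the 6 steroidogenic genes was between 0.76 and 1.26 in the 8-day arrays, between -0.22 and -0.12 in the 16-day arrays and between -0.47 and -0.09 in the 24-day arrays.

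Set against each other over the 9 arrays, after centring each gene on its own mean, the 6 genes were compared by their root mean square difference on the log2 scale, a measure that is small for genes of small changes. It was 0.260 between Scarb1 and Nr5a1, about the root mean square of Scarb1 itself (0.263), 0.586 between Cyp11a1 and Cyp17a1, and 1.41 between Scarb1 and Cyp17a1. Over the same 9 arrays the gene outside the group nearest to Nr5a1 was Septin8, at 0.0371, followed by Ephb6, Sirpa, Efs and Csrp1, where the root mean square of Nr5a1 itself was 0.478. Nearest to Scarb1 were Stk4 (0.0491), Srgap3, Pim2, Fzd4 and Adgrf5. Nearest to Star were Fabp3, a fatty acid-binding protein gene (0.297), Slc24a5, the angiotensin receptor gene Agtr2, Shisa6 and Nnat, against 0.931 for Star itself. Nearest to Cyp11a1 were Postn, Adh1, Tspan6, Cd24a and Pappa, at 0.608 to 0.667 against 1.09 for Cyp11a1 itself. Nearest to Hsd3b1 were Cmbl (0.225), Slc7a8, Postn, Zfp640 and Cd36. Nearest to Cyp17a1 outside the group was Lpcat2, at 1.01, followed by Slc24a5, Adh1, Fabp3 and Cdh11, where Cyp17a1 itself had 1.55. Within the group Cyp11a1 lay nearer to Cyp17a1, at 0.586. Nearest to the mean of the 6 genes was Creb3l1 (0.288), followed by Cadps, Slc7a8, Inhbb and Adh1. Likeness over 3 ages is a description of these arrays.

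The scaling of the arrays bears on the sizes of these changes. With centred arrays the change at 24 against 8 days moved up by 0.12 for every gene, and those between 8 and 16 and between 16 and 24 days by 0.03 and 0.09. On that scale the changes at 24 against 8 days were -1.04 for Nr5a1, -0.48 for Scarb1, -1.89 for Star, -1.24 for Cyp11a1, -0.71 for Hsd3b1 and -2.07 for Cyp17a1, and all 6 were called, Hsd3b1 with a limma adjusted p of 0.0497. Over all genes 3825 rose and 7015 fell at 24 against 8 days, and 4389 rose and 5236 fell with centred arrays. Between 16 and 24 days 2641 rose and 4004 fell, and 2861 rose and 1927 fell with centred arrays.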

How the data were processed

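RNA of whole testis was biotin-labelled for Affymetrix arrays, per the labels' protocols. The authors deposited 28815 rows of log2 values, centred so that a row's median array is 0; background correction, normalization and summarization are not given in the sources used here. Blanks (38964) were taken as 0, since every row's median was then 0. Of the rows, 21780 carried 1 gene symbol, 1605 several and 5430 none; only the first were used, rows of a gene were averaged, and 21689 gene IDs matched RefSeq (GRCm38.p6). Tests used limma 3.58.1 in R 4.3.3 (a mean per age, 9 arrays, 6 residual and 3.82 prior degrees of freedom, 2-sided, Benjamini-Hochberg, threshold 0.05). They were also run on simulated data with independent values and 1 SD per gene at all ages. That run does not cover SDs that differ by age or arrays that deviate across many genes. The number of arrays limits the precision. The genes, lists and tests were chosen with earlier results of these data known, and the promoter motifs after the windows were read. Every gene of the group is named. From pathway lists up to 4 called genes with the largest change per comparison are named, from cell type lists up to 2, and for likeness the 5 nearest genes. Further endothelial and peritubular genes are named for how their calls held. The arrays and lists named beside replicate 2 of 16 days were chosen after their values were seen. Alternatives were other scaling, weights, blanks, blocks and arrays left out. Tables were joined with pandas 2.3.3 and figures drawn with matplotlib 3.10.9 in Python 3.11.15.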

Additional observations from a re-analysis of the deposited data

Results flagged for a closer look

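The change from 16 to 24 days differed from the change from 8 to 16 days for 2 of the 6 genes, by limma's test of that difference. For Cyp11a1 the later change minus the earlier one was 3.48 ± 0.62 on the log2 scale (limma adjusted p = 0.00862). For Hsd3b1 it was 1.80 ± 0.44 (limma adjusted p = 0.0428). Over all genes 5.38% were called. All 3 arrays of 16 days lay below all 3 of 8 days for each of the 6 genes, and for 21.5% of all genes. Between 16 and 24 days the arrays of Cyp11a1 overlapped. Leaving out single arrays took the limma adjusted p up to 0.0505 for Cyp11a1 and 0.157 for Hsd3b1, so neither call held throughout. The same difference did not pass for Star, Scarb1, Nr5a1 and Cyp17a1. Single arrays were not tested for lying apart, since an age holds 3.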

How the results depend on the processing

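All 6 genes had a lower mean at 16 and at 24 against 8 days under every alternative run, and the number called changed. Against a minimum change of 1.5-fold (limma treat), Star and Cyp11a1 were called at 16 against 8 days and Cyp17a1 was not (limma treat adjusted p = 0.0525). By that test 2 were called at 16 against 8 days, 0 at 24 against 16 days and 2 at 24 against 8 days. Leaving out 1 array at a time gave 5 to 6, 1 to 3 and 4 to 6 called genes in those comparisons, 0 to 3 for the difference between the intervals, and 6 for the test over all ages. At 24 against 16 days 1 gene was called with blanks left missing and with only the arrays of both ages, Nr5a1, and 1 with the block on the 6 numbered arrays, Cyp11a1; array weights called Nr5a1 and Scarb1 and not Cyp11a1. For the difference between the intervals 1 was called with blanks left missing, centred arrays, array weights and the block on 6 arrays. That difference for Nr5a1, -0.01 as reported, was 0.040 with centred arrays and ranged from -0.066 to 0.051 without single arrays (0.0045, 0.014, 0.012 and 0.051 where it turned positive), with limma adjusted p of 0.865 or more; the cause was not tested.

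Same-numbered arrays did not deviate together throughout. Their correlations across pairs of ages ran from -0.136 to 0.195 for replicate 1 and from -0.46 to 0.197 for replicate 2. For replicate 3, the unnumbered arrays, they were all positive, from 0.034 to 0.45. The numbers were not used as pairs. With the replicate block on the 6 numbered arrays 4 genes were called at 16 against 8 days, without Nr5a1 (limma adjusted p = 0.0641) and Scarb1 (0.183), 1 at 24 against 16 days, without Nr5a1 (0.0825), and 5 at 24 against 8 days, without Hsd3b1 (0.0745). Over all genes the block called 1971 at 16 against 8 days, against 4914, and 1294 at 24 against 16 days, against 6645. Treat called 696, 793 and 3578 in the 3 comparisons, where 10840 were called at 24 against 8 days. Without replicate 1 of 16 days 3669 genes were called at 24 against 16 days, and without replicate 1 of 24 days 3811. For the difference between the intervals 1072 genes were called, 550 with the block and 613 without replicate 1 of 16 days. With the block 5934 genes differed over the ages, against 10104.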
